A study of Homo sapiens with 4 samples.

Results

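The miR-17-92 cluster is a run of 6 miRNA hairpins that are cut from 1 primary transcript, the product of the host gene MIR17HG on chromosome 13. Its assays were chosen by name alone: every assay called miR-17, miR-18a, miR-19a, miR-19b, miR-20a or miR-92a, with or without a suffix for the copy or the arm. This gave 13 of 737 different miRNA assays, namely hsa-miR-17, hsa-miR-17*, hsa-miR-18a, hsa-miR-18a*, hsa-miR-19a, hsa-miR-19b, hsa-miR-20a and hsa-miR-92a, which are listed for the cluster, and 5 further opposite arms that the naming rule admits. In the older naming used on the plates, a star marks the opposite arm of a hairpin, the strand that is usually less abundant. Of the 13, miR-19b-2* and miR-92a-2* come from a second copy of their hairpins on chromosome X and serve as a comparison within the set.

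The samples were 4 RNA preparations of U2OS, a human osteosarcoma line, grown in 5% serum, with 1 sample per group. The first pair came from cells carrying a lentiviral short hairpin RNA, either the control (shNS) or one against DDX1 (shDDX1), under selection with puromycin at 2 µg/ml. The second pair, whose own labels name no infection although the culture text is shared by all samples, came from untreated cells and from cells given neocarzinostatin (NCS), a drug that cuts DNA, for 6 h at 500 ng/ml. Mature miRNA was read by quantitative PCR as a quantification cycle (Ct), which is lower where more template is present. DDX1 is a DEAD-box RNA helicase, and the series title presents it as a factor that helps some primary miRNAs to be processed. The extent of its knockdown was not analysed here.

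The cluster is known as an oncogene that MYC activates and that is amplified in some lymphomas. miR-17 and miR-20a repress the cell-cycle inhibitor p21 and the death factor BIM, miR-18a represses the damage kinase ATM, and miR-92a restrains vessel growth. After Drosha and Dicer have cut a hairpin, 1 strand is usually kept in an Argonaute protein as the guide and the other is mostly degraded. Assays for both arms of a hairpin, and for hairpins of 1 transcript, therefore read different products of the same precursor RNA.

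The 6 hairpins lie on the plus strand within 787 bases of chromosome 13 (GRCh38.p14), inside the bounds of the long noncoding RNA gene MIR17HG, chr13:91347687-91354577. In genome order they are MIR17 (chr13:91350605-91350688), MIR18A (chr13:91350751-91350821), MIR19A (chr13:91350891-91350972), MIR20A (chr13:91351065-91351135), MIR19B1 (chr13:91351192-91351278) and MIR92A1 (chr13:91351314-91351391). The gaps between neighbouring hairpins were 62, 69, 92, 56 and 35 bases. All 13 assays were matched to a RefSeq mature sequence. The hairpins whose arms differed most in these samples are shown first, from RefSeq, with both mature arms in capitals, the guide on the left and the opposite arm on the right.
MIR17: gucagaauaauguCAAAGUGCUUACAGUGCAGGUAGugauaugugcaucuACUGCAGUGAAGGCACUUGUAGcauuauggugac
MIR18A: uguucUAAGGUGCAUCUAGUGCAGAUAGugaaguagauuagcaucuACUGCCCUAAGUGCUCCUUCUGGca

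The guide strands fall into 4 seed groups, the seed being bases 2 to 8 from the 5′ end, in capitals. They are shown because the seed groups decide which targets the members share.
hsa-miR-17: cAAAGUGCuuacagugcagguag
hsa-miR-20a: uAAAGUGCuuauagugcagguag
hsa-miR-18a: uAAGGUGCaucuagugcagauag
hsa-miR-19a: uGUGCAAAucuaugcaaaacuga
hsa-miR-19b: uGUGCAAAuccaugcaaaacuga
hsa-miR-92a: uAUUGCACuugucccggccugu

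The opposite arms carry other seeds, and miR-17*, miR-18a* and miR-20a* share only the first bases. They are shown with the arms that tell the chromosome 13 and X copies apart.
hsa-miR-17*: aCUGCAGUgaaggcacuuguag
hsa-miR-18a*: aCUGCCCUaagugcuccuucugg
hsa-miR-20a*: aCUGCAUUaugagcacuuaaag
hsa-miR-19b-1*: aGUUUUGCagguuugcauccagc
hsa-miR-19b-2*: aGUUUUGCagguuugcauuuca
hsa-miR-92a-1*: aGGUUGGGaucgguugcaaugcu
hsa-miR-92a-2*: gGGUGGGGauuuguugcauuac

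Some of these strands are nearly the same as another measured miRNA. Positions are counted from 1 at the 5′ end, with the first-named miRNA's base first. miR-17 differs from miR-20a by C1U and C12U and from miR-106a, of chromosome X, by C1A alone. miR-18a differs from miR-18b by A20U, and miR-19a from miR-19b by U11C. The mature strands of miR-19b and miR-92a are the same from the chromosome 13 and X copies, so these assays read both. How far an assay also reads its near neighbours was not tested.

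Before any ratio, the plates themselves differed between samples. Of 740 miRNA wells, between 521 and 732 per sample read under Ct 35, the limit below which a well was taken as quantified. The mean Ct over the wells under that limit in every sample was 25.8 for shNS, 26.1 for shDDX1, 30.1 for the untreated sample and 29.4 for the NCS-treated one. Levels were therefore centred on that mean in each sample and compared only within a pair, as a log2 ratio in which 1 cycle counts as 1 doubling. Repeat readings gave the error estimate for a ratio: over 7 assays present on both panels of the plate set, log2 ratios had an SD of 0.38 in the shDDX1 pair and 0.79 in the NCS pair. With each panel centred separately these SDs were larger, 0.57 and 1.06. Of 5 mesenchymal marker miRNAs, 5 read under Ct 35 in each sample, from 21.4 to 31.9. Markers of blood, liver, neuron, muscle and islet cells also gave Ct values under 35 in shNS, between 22.6 and 29.6. All of these markers also did so in shDDX1. In untreated cells 3 of 4 blood markers and 1 of 4 muscle markers did, and after NCS 4 of 4 and 3 of 4. The liver, neuron and islet markers all read under 35 in both samples of the NCS pair. In untreated cells the neuron markers read 27.45 to 31.32 and the islet marker 28.95. These lay within the mesenchymal range of that sample, 26.48 to 31.87, and the liver marker was later, at 32.8.

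The cluster was abundant in all 4 samples. Its 6 guide strands read Ct 19.3 to 23.9 in shNS, where the median miRNA well read 27.5, and 21.7 to 28.3 in untreated cells, against a median of 31.8. miR-20a, miR-19b and miR-92a were the earliest of the cluster in every sample. In shNS they read 19.3, 19.3 and 19.5, and neighbours in that order differ by about the pooled SD of 0.19 cycles between calibrator wells of a plate or less, so their order is not resolved. miR-18a followed at 21.7, then miR-19a at 23.2 and miR-17 at 23.9. Ct values of different assays also depend on each assay's efficiency, so this is an order of readings rather than of copies.

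The opposite arms of the chromosome 13 hairpins read between 23.3 and 26.4 in shNS. The earliest was miR-17*, at 23.3, ahead of its own guide, and the latest was miR-19b-1*, at 26.4. The arms particular to chromosome X were later. miR-19b-2* trailed miR-19b-1* by 7.74 cycles in shNS and 8.52 in shDDX1, and by 8.41 without and 7.73 with NCS. miR-92a-2* read 5.17 cycles after miR-92a-1* in shNS, 4.92 in shDDX1 and 10.3 in untreated cells, and was undetermined after NCS. The X-derived opposite arms were the latest 2 of the 13 readings in shNS and in untreated cells, and in shDDX1 miR-17* was later than miR-92a-2*.

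**Figure D1:**
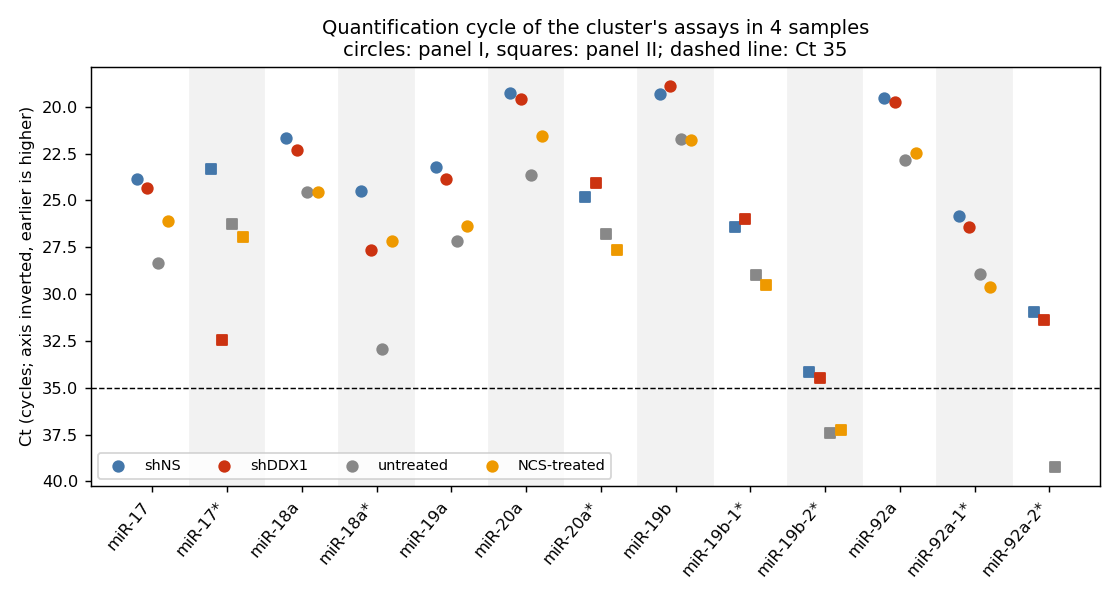
Ct (cycles, axis inverted so that earlier readings stand higher) of the 13 assays in the 4 samples, 1 point per sample, with circles for panel I, squares for panel II and a dashed line at Ct 35. miR-17* in shDDX1, at 32.4, and miR-18a* in untreated cells, at 32.95, stand far from the other samples of their assay.

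In shDDX1 cells, the guide strands of the cluster were close to those in shNS cells, while 2 opposite arms were much lower. None of the 6 guides passed 2-fold under the common centring, with log2 ratios from -0.36 for miR-19a to 0.74 for miR-19b and a median of -0.09. Against small RNAs as the reference, miR-18a at -1.02 and miR-19a at -1.03 were past 2-fold lower. With each panel centred separately, miR-19b was past 2-fold higher, at 1.16. miR-17* was 446.2-fold lower and miR-18a* 7.17-fold lower, and miR-20a* was 2.14-fold higher. In shDDX1 both lower arms read later than the earliest blank (water) well of their panel, which gave Ct 26.5 on that of miR-17* and 27.3 on that of miR-18a*, so these folds describe the readings and their size is not resolved from blank-well signal. Over the 13 assays, all of them quantified, 2 were lower by 2-fold or more and 1 was higher, which is 15.4% and 7.69%. Over all 716 quantified miRNAs the shares were 17.3% and 11%, so the counts are near the background and are no result about the cluster as a whole. The median log2 ratio was -0.08, against 0.04 over all miRNAs. With 1 sample per group there was no test, and the spread between cultures is unknown.

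miR-17* read Ct 23.3 in shNS and 32.4 in shDDX1, and 26.3 without and 26.95 with NCS. It was the latest chromosome 13 member in shDDX1 and in the middle of their order, 5 to 7 of 11, in the other 3 samples. Relative to the median of the 9 other chromosome 13 assays apart from miR-18a*, it lay at 0.15 cycles in shNS, 8.59 in shDDX1, -0.56 without NCS and 0.84 with it, where a positive value is later. Its log2 ratio of -8.80 in shDDX1 ranked 4 from the lowest of 716, a rank of the readings with the same limit, and ranged from -9.47 to -8.80 over 9 scalings (the common mean, the median, small RNAs, reference miRNAs, none, each panel, calibrator wells, neighbouring wells and the authors' shifted Ct). For the members in the shDDX1 pair, the authors' shifted Ct gave the same ratios as no centring. The scalings listed from the common mean to calibrator wells move all wells of a panel alike. A narrow range over them is therefore no sign of stability. miR-17* is known to repress antioxidant enzymes of mitochondria, and its seed differs from that of miR-17, as the sequences above show.

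The miR-17* reading comes from 1 well, F15 on panel II. Its 24 quantified neighbours within 2 rows and 2 columns had a median log2 ratio of 0.50, and 3 of them were at least 2-fold lower: miR-877* at -4.68, miR-106a* at -2.50 and another assay of the panel, miRPlus-A1031, at -1.40. The other 14 quantified wells of its column had a median of 0.51 and a lowest value of -2.50, that of miR-106a*. In shDDX1 it read later than the earliest blank (water) well on its panel, which gave a Ct of 26.5. The part of water-well signal in the value was not tested.

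The guide of that hairpin, miR-17, read 23.9 in shNS and 24.3 in shDDX1, a log2 ratio of -0.15. The opposite arm lay at -0.52 cycles from the guide in shNS, slightly earlier, and at 8.12 cycles in shDDX1. The log2 ratio of miR-17* minus that of miR-17 was thus -8.65, and it ranged from -9.67 to -8.65 over 9 scalings. A centring common to both panels cancels in this difference, so scalings of that kind could not change it.

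miR-18a* read Ct 24.5 in shNS and 27.6 in shDDX1, and 32.95 without and 27.2 with NCS. It was earliest in shNS, and its late reading in untreated cells stands apart from the other 3. Its log2 ratio in shDDX1 was -2.84, or 7.17-fold lower, ranking 20 from the lowest of 716. It ran from -3.51 to -2.42 over 9 scalings, a range with the limit given for miR-17*. miR-18a* lies on panel I together with its guide, though in column 17 where miR-18a is in column 2. miR-18a read 21.7 in shNS and 22.3 in shDDX1, a log2 ratio of -0.35. The distance from guide to opposite arm was 2.81 cycles in shNS and 5.30 in shDDX1.

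The well of miR-18a*, L17, lies among the middle columns of panel I, 7 to 18, where the median log2 ratio in shDDX1 was -0.82 and 41.1% of quantified miRNAs were lower by 2-fold or more. Its 23 quantified neighbours had a median of -0.38, and 5 of them were at least 2-fold lower. After the neighbours' median was subtracted, miR-18a* was still 5.51-fold lower. In shDDX1 it read 27.6, just after the earliest water well of its panel at 27.3. The part of plate position and of water-well signal in this value was not tested.

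The other opposite arms of the cluster did not follow these 2. miR-20a* read 24.8 in shNS and 24.0 in shDDX1, a log2 ratio of 1.10, and it passed 2-fold in 2 of 9 scalings only. With each panel centred separately it was at 0.67. miR-19b-1* was at 0.76, with Ct 26.4 and 25.97, and miR-92a-1* at -0.33, with Ct 25.8 and 26.4. Of the X-derived arms, miR-19b-2* was at -0.02 and miR-92a-2* at -0.08.

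Among the remaining guides, miR-20a read 19.3 in shNS and 19.6 in shDDX1, a log2 ratio of -0.03. miR-92a read 19.5 and 19.7, a ratio of 0.11, and miR-19a read 23.2 and 23.9, a ratio of -0.36. These 3 lie within 1 technical SD of 0. miR-19b read 19.3 and 18.9, a log2 ratio of 0.74, which became 2.24-fold when panels were centred one by one. That setting left 2 members lower and 1, miR-19b, higher, where 15.6% and 7.82% of all miRNAs passed. With the median of neighbouring wells subtracted, 2 were lower and 0 higher, against 12.8% and 7.96% of all miRNAs. In these 3 settings the 2 lower members were miR-17* and miR-18a*. The direction of miR-17, miR-18a, miR-19a, miR-20a, miR-92a and miR-92a-1* in this pair changed within the 9 scalings.

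**Figure D2:**
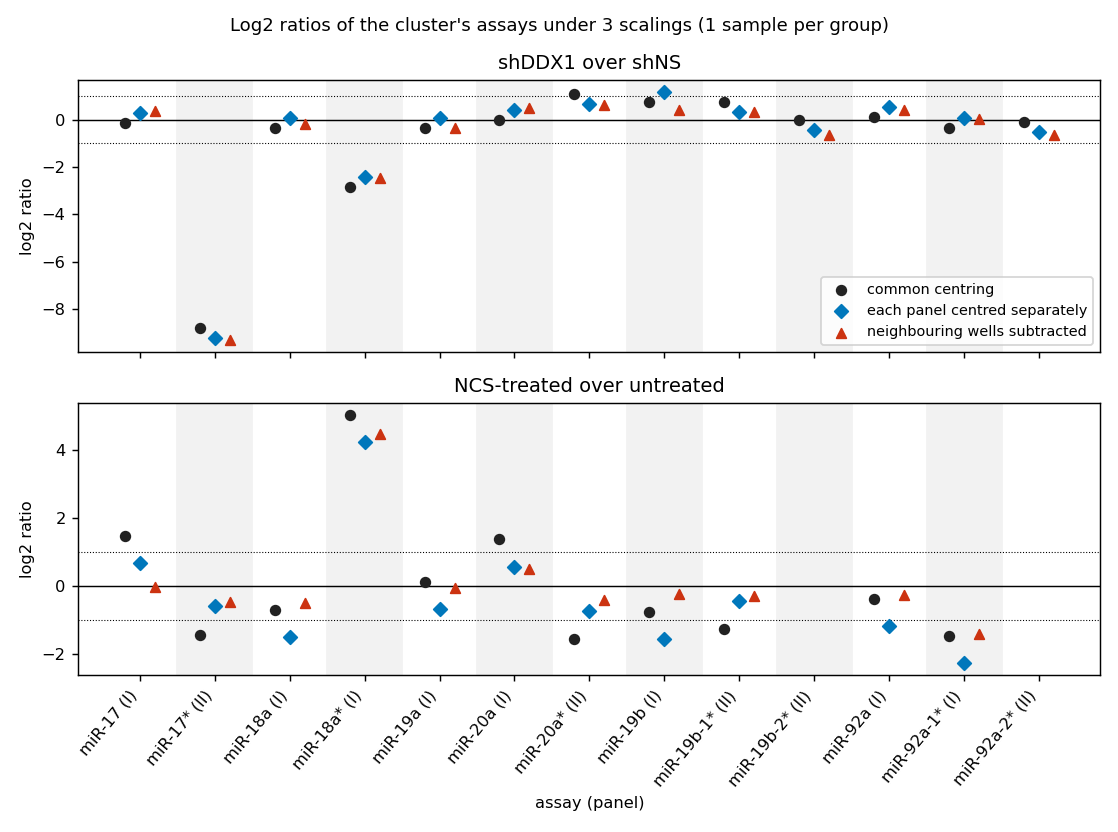
Log2 ratios of the 13 assays in both comparisons under 3 scalings (common centring, each panel centred separately, median of neighbouring wells subtracted), with dotted lines at 2-fold and the panel of each assay in parentheses. In shDDX1, miR-17* lies at -8.80 or lower and miR-18a* between -2.84 and -2.42 under all 3, and after NCS miR-18a* stays above 4.2; assays under Ct 35 in only 1 or neither sample of a pair have no point.

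The distances between arms allow the 5 hairpins with both arms measured to be compared in each sample. The guides miR-19b and miR-92a are also read from their chromosome X copies, so the distances for MIR19B1 and MIR92A1 are not those of 1 hairpin alone. For MIR19B1 the opposite arm read 7.12, 7.10, 7.28 and 7.78 cycles after the guide, for shNS, shDDX1, untreated cells and NCS-treated cells in turn. For MIR92A1 the distances were 6.27, 6.71, 6.07 and 7.14 cycles, in the same order. Over the 4 samples these ranged over 0.67 and 1.08 cycles. For MIR20A they were 5.59, 4.45, 3.17 and 6.10 cycles, a range of 2.93. For MIR18A they were 2.81, 5.30, 8.40 and 2.67 cycles, a range of 5.73. For MIR17 they were -0.52, 8.12, -2.07 and 0.84 cycles, a range of 10.2. The arms of MIR18A and MIR92A1 lie together on panel I, while those of MIR17, MIR20A and MIR19B1 lie on different panels, so a panel difference enters the latter 3. On panel I, miR-18a lies outside the middle columns and miR-18a* within them, so a difference of place enters MIR18A too. Outside and within those columns the median log2 ratios were -0.24 and -0.82 in shDDX1, and -0.15 and 1.21 after NCS. The part of plate position in these distances was not tested.

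**Figure D3:**
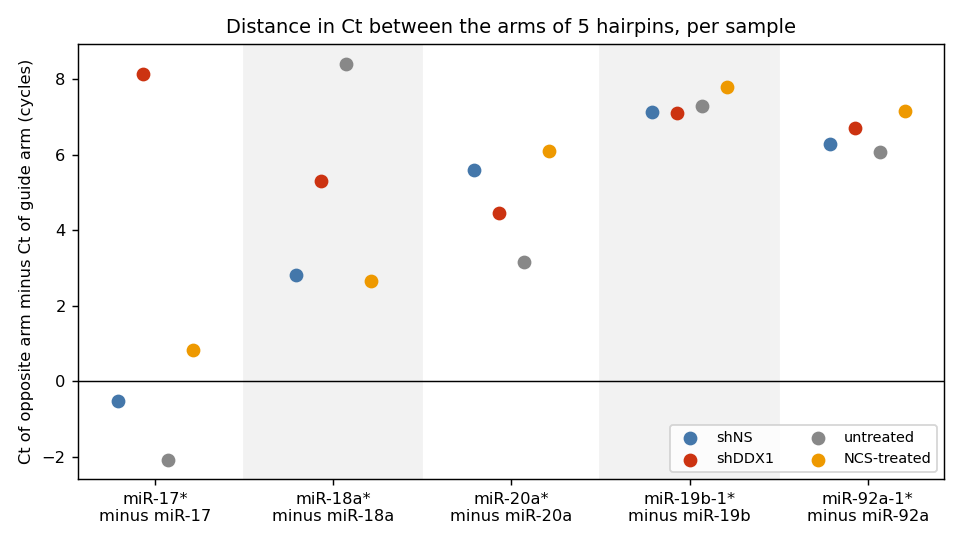
Ct of the opposite arm minus Ct of the guide arm (cycles) for the 5 hairpins with both arms measured, 1 point per sample. The distances range over 0.67 cycles for MIR19B1 and 1.08 for MIR92A1, whose guides are also read from chromosome X copies. miR-17* in shDDX1 and miR-18a* in untreated cells lie over 8 cycles behind their guides.

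After NCS, the members' ratios differed in direction, and the higher and lower ones lay in different places on the plates. Of the 11 quantified assays, 3 were higher by 2-fold or more and 4 lower, or 27.3% and 36.4%. Over all 498 quantified miRNAs the shares were 16.9% and 22.3%. miR-18a* was 32.6-fold higher, miR-17 2.77-fold and miR-20a 2.58-fold, and these are the 3 members in the middle columns of panel I. In those columns 55.8% of all quantified miRNAs were at least 2-fold higher, with a median log2 ratio of 1.21. miR-20a* was 2.96-fold lower, miR-17* 2.70-fold and miR-19b-1* 2.40-fold, and these are all 3 quantified members on panel II, where 40.4% of miRNAs were at least 2-fold lower, with a median of -0.84. The remaining lower member, miR-92a-1*, lies on panel I outside the middle columns and was 2.75-fold lower.

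Of these 7, only miR-18a* and miR-92a-1* stayed past 2-fold once the median of neighbouring wells was subtracted. Under that setting 1 of 11 was higher and 1 lower, against 16.7% and 12.7% of all miRNAs. miR-17 turned from 1.47 to -0.038, and miR-20a went from 1.37 to 0.49. With each panel centred separately 1 member was higher and 4 were lower, against 13.7% and 20.5% of all miRNAs. The 4 were then miR-92a-1*, miR-19b, miR-18a and miR-92a, at -2.26, -1.57, -1.51 and -1.19, all in the outer columns of panel I. There the median of all miRNAs was -0.95 under that setting. The part of plate position in these changes was not tested.

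miR-18a* went from 32.95 in untreated cells to 27.2 after NCS, while its guide miR-18a read 24.6 and 24.5. The log2 ratio was 5.03 for the opposite arm, ranking 11 from the highest of 498, and -0.71 for the guide, and the arms' ratios differed by 5.73. Over 9 scalings the ratio of miR-18a* ran from 4.22 to 5.82. Most of these move all wells of a panel alike, so this range is no sign of stability. Against shNS, miR-18a* in untreated cells was 8.47 cycles later, where the 13 members had a median of 3.25. All miRNAs in the middle columns of panel I had a median of 5.82, with quartiles of 4.36 and 8.95. The shift of miR-18a* thus lay between the quartiles of its place on the plate. In NCS-treated cells its distance behind miR-18a, 2.67 cycles, was close to the 2.81 of shNS. Of its 15 quantified neighbours 7 were at least 2-fold higher, led by miR-96 at 5.87, and their median was 0.55. The part of plate position in this value was not tested.

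miR-17 read 28.3 without and 26.1 with NCS, and miR-20a, which shares its seed, 23.6 and 21.5. miR-19a read 27.2 and 26.3, a log2 ratio of 0.12, and miR-19b 21.7 and 21.8, a ratio of -0.77. miR-92a read 22.8 and 22.5, a ratio of -0.38. The median over the 11 was -0.71, against -0.38 over all miRNAs, and ran from -0.71 to 0.30 over 9 scalings, and the range without miR-18a* ran from -1.56 to 1.47.

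The 3 quantified opposite arms on panel II read later after NCS. miR-17* went from 26.3 to 26.95, miR-20a* from 26.8 to 27.6 and miR-19b-1* from 29.0 to 29.5. miR-92a-1* went from 28.9 to 29.6, a log2 ratio of -1.46, and minus that of its guide miR-92a this was -1.08. The difference between these arms, both on panel I, ranged from -1.16 to -1.07 over 9 scalings. Any centring common to a panel cancels between 2 arms on it, so this narrow range is no sign of stability. The technical SD of a single NCS ratio was 0.79. miR-19b-2* read 37.4 and 37.3, and miR-92a-2* 39.2 and undetermined, so neither was quantified.

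**Figure D4:**
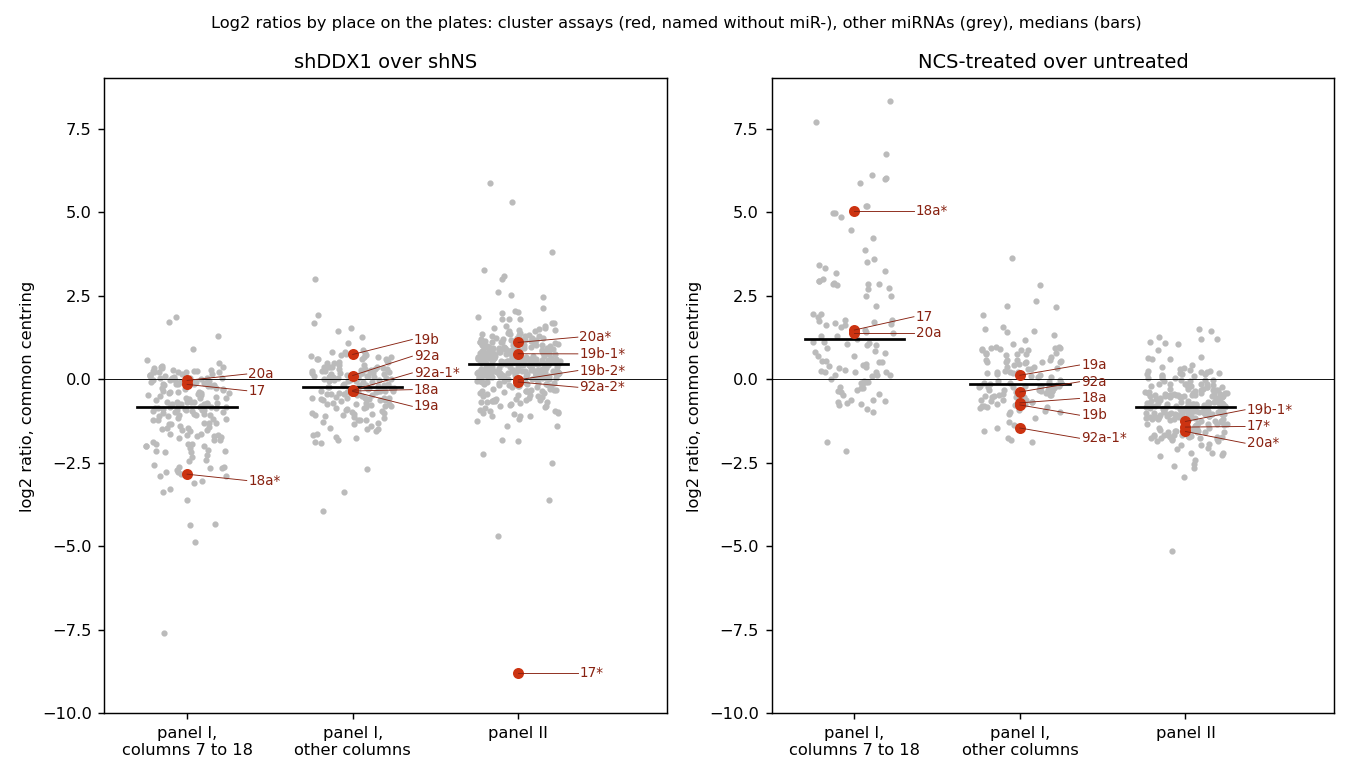
Log2 ratios (common centring) of the cluster's quantified assays (red, named without miR-) and of all other quantified miRNAs measured on 1 panel (grey), by place on the plates, with the median of each zone as a bar. After NCS the 3 higher members lie in the middle columns of panel I and those on panel II are lower, as their zones are; 3 other miRNAs in shDDX1 and 1 after NCS lie outside the axis.

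The order of the members differed between samples in part. miR-20a was the earliest in shNS and the third in untreated cells, and miR-20a* followed miR-17 in shNS and preceded it in shDDX1. Over the 9 chromosome 13 assays without miR-17* and miR-18a*, Pearson correlations of Ct between samples ran from 0.93 to 0.99 and Spearman correlations from 0.87 to 0.97. Over all 11, Pearson correlations ran from 0.68, between shDDX1 and untreated cells, to 0.99, between shNS and NCS-treated cells. These are descriptions over assays that share plates and samples, and the pair left out was chosen after its values were seen.

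The cluster has 2 paralogs in the genome, the miR-106a-363 cluster on chromosome X and the miR-106b-25 cluster in the gene MCM7. In shDDX1, all 14 of their assays were quantified, with a median log2 ratio of 0.10. miR-106a* at -2.50 and miR-363 at -1.48 were lower, and miR-93* at 2.53 and miR-106b* at 1.16 higher. miR-106b* was within 2-fold with panels centred separately, at 0.72, and with neighbouring wells subtracted, at 0.77, and miR-363 was at -0.87 in the latter. Their 7 guide strands therefore included 1 past 2-fold under the common centring, miR-363. Its Ct of 32.2 in shNS and 33.96 in shDDX1 was late. Under that centring 14.3% of the 14 were lower and 14.3% higher, against 17.3% and 11% of all miRNAs. Once the median of neighbouring wells was subtracted, the guides miR-18b and miR-93 were past 2-fold higher instead, at 1.76 and 1.12. That setting left 1 of the 14 lower and 3 higher, or 7.14% and 21.4%, against 12.8% and 7.96% of all miRNAs. miR-106a* is the paralog of miR-17* in position, and its guide miR-106a was at 0.50, with Ct 19.4 and 19.2. miR-106a* read 30.4 in shNS and 33.2 in shDDX1, and its well lies 2 rows from that of miR-17*.

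After NCS, 9 of the 14 paralog assays were quantified, with a median of -0.68. miR-106a* was lower at -1.96 and miR-106b higher at 1.07. miR-106b was at 0.27 with panels centred separately and -0.03 with neighbouring wells subtracted, so that this call was lost in both. Of the other paralog guides in the middle columns of panel I, miR-93 was at 0.08 and miR-18b at -0.11. With neighbouring wells subtracted, 3 of the 9 paralog assays were lower and 0 higher, or 33.3% and 0%. Over all miRNAs the shares were 12.7% and 16.7%. The 3 were miR-93 at -1.68, miR-106a* at -1.17 and miR-18b at -1.16. miR-93 and miR-18b did not pass 2-fold under the common centring or with panels centred separately, at -0.72 and -0.91 in the latter. The opposite arm of miR-18b, the paralog of miR-18a*, read 30.9 in shNS and 31.5 in shDDX1 but 38.7 without and 36.7 with NCS, beyond the limit. Of 5 further miRNAs that share a seed with a guide of the cluster, in shDDX1 miR-32 was lower at -1.05 and miR-526b* higher at 1.01. Neither stayed past 2-fold with panels centred separately, at -0.63 and 0.58, or with neighbouring wells subtracted, at 0.20 and 0.46. Of the 4 quantified after NCS, miR-32 was higher at 3.87 and miR-92b at 1.86, both from wells in the middle columns of panel I. With neighbouring wells subtracted they were at 1.18 and 0.24, so that miR-92b was no longer past 2-fold. miR-32 went from Ct 30.4 to 25.8.

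The miRNAs whose pair of ratios lay closest to the cluster's medians of -0.08 and -0.71 were miR-580, miR-155*, miR-373*, miR-193b and miR-574-3p. Their distances were between 0.04 and 0.11 on the log2 scale, among 485 other miRNAs quantified in all 4 samples. Nothing is implied about what they share with the cluster, since ratios near these medians are common on the plates.

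In the authors' deposited table the fold of shDDX1 over shNS was 0.0018 for miR-17* and 0.113 for miR-18a*, and lay between 0.629 and 1.74 for the other 11. These equal the folds of the Ct values without centring, so they are no separate support. In the authors' deposited table the fold of NCS-treated over untreated cells was 54.1 for miR-18a*, 6.12 for miR-17 and 3.57 for miR-20a. For miR-17* the authors' deposited fold after NCS was 0.499, and for the other 9 it lay between 0.586 and 1.90. Those for miR-19b-2* and miR-92a-2* rest on readings past the limit or undetermined in the Ct table.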

How the data were processed

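Ready-to-use PCR plates (human panels I and II), reverse transcription and SYBR Green detection are named in the labels' protocols, and 1 sample was measured per group. The authors deposited Ct for 384 wells per panel, shifted Ct values, and a linear fold over the control of each pair. How the last 2 were made is not given in the sources used here. They served as alternatives, but in the shDDX1 pair their ratios for the cluster's assays equal those without centring. Here, minus Ct was centred, sample by sample, on the 499 miRNA wells under Ct 35 in every sample, and wells of 1 assay were averaged. A call needed 2-fold and Ct under 35 in both samples. No test was possible. Named were every member, the lowest and highest paralogs, the 5 closest patterns, and wells near a member where a result turned on them. Other paralogs and seed-sharing miRNAs past 2-fold, with miR-106a, miR-93, miR-18b and miR-18b*, were named after their values were seen. Members and lists were chosen with earlier results of these data known. Assay names were matched to RefSeq arms (GRCh38.p14) by hand. The code was tested on simulated data with Python 3.11.15, pandas 2.3.3 and numpy 2.4.6.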

Additional observations from a re-analysis of the deposited data

Results flagged for a closer look

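Blank wells held water and belong to no comparison. There were 9 per sample, of which 6 amplified on the shNS plates and 7 on the shDDX1 plates, against 0 on those of the NCS pair. The earliest readings, on panel II, were Ct 26.6 for shNS and 26.5 for shDDX1, and on panel I they were 27.8 and 27.3. In shNS, 2 members read later than the earliest blank of their own panel, miR-19b-2* and miR-92a-2*. In shDDX1, miR-17* and miR-18a* did so as well. The part of this signal in the members' readings was not tested.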

How the results depend on the processing

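No paired analysis was possible because there is just 1 sample in a group, and no replicate could be left out. In shDDX1, the 2 lower and 1 higher member and the median of -0.08 became 4 and 0, with a median of -0.75, against small RNAs, where the whole plate shifted by -0.67. The added lower members were guides, miR-18a at -1.02 and miR-19a at -1.03. Against reference miRNAs the median was -0.55 and 0 were higher. No centring, neighbouring wells, both deposited tables, 4-fold and the 8 listed assays also gave 0 higher, and 1.5-fold gave 3. In this pair both deposited tables repeat the members' ratios without centring. A Ct limit of 32, which drops miR-17*, gave 1 lower and 0 higher. The paralog median of 0.10 became -0.56 against small RNAs and -0.36 against reference miRNAs. After NCS, the 4 lower became 0 against small RNAs, without centring and at 4-fold. They became 1 with calibrator wells, neighbouring wells, both deposited tables and the 8 listed assays. The 3 higher became 1 with panels centred separately, neighbouring wells or 4-fold. The share of all miRNAs called is given here only for common centring, separate panels and neighbouring wells. Counts under the other settings have no such share beside them, so they are no result about the members. The medians of -0.71 for the members and -0.68 for the paralogs became 0.30 and 0.19 in both deposited tables. miR-17 changed sign, from 1.47 to -0.038, with neighbouring wells. Median centring, a Ct limit of 37, no limit and removal of early readings moved none of these 8 results. The list of 8 assays was added after the data were seen. The cause of these differences was not tested. Each member rests on 1 well per panel set in each sample, which limits its precision.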
